A study of Mus musculus with 141 samples.

Results

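Fasn encodes fatty acid synthase, the enzyme that builds palmitate from acetyl-CoA and malonyl-CoA, and its level varied widely between the inguinal white adipose tissue (iWAT) libraries of inbred mouse strains. The comparison described here sets libraries with high Fasn against libraries with low Fasn. The members were chosen by Fasn itself: within each sex, libraries were ranked by the abundance of its transcripts (TPM, the length-normalised share of all transcripts), and the top 25% were compared with the bottom 25%. This gave 68 libraries, of 67 female and 74 male libraries in all, with 16 female and 18 male libraries in each of the high-Fasn and low-Fasn groups. The ranking used 65 female and 73 male libraries, because 3 libraries were left out. These were the females labelled BXD34/TyJ and BXD69/RwwJ and the male labelled NZW/LacJ. In the 2 females the summed TPM of the Y-linked genes Ddx3y and Eif2s3y was 3.89 and 231, against 0.0404 to 2.85 in the ranked females. In the male it was 0.528, against 46.9 to 363 in the ranked males. The sums of 231 and 0.528 went against the sex in the titles. The sum of 3.89 was just above the ranked females and below every ranked male. The BXD34/TyJ female had total estimated counts of 6.27e+06, of which 29.9% came from mitochondrially encoded genes. Both values lie outside the ranges of the compared libraries.

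Every library came from RNA of the iWAT of an inbred strain of the Hybrid Mouse Diversity Panel, a collection of classical inbred and recombinant inbred strains. All mice ate a high-fat, high-sucrose diet that began at 8 weeks of age and lasted 8 weeks, and food was withheld for 4 h before the tissue was taken, so that both groups share the diet and the fast and no chow-fed group was compared. The high-Fasn and low-Fasn groups were therefore not treatments: they are mice of the same regimen that differed in strain and in the level of 1 gene. A strain gave at most 1 library per sex. p-values thus measure the spread among these mice and not among littermates of a strain.

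Fatty acid synthesis in adipocytes starts from glucose, whose carbon leaves the mitochondrion as citrate and is returned to acetyl-CoA in the cytosol. The acetyl-CoA is carboxylated, joined into palmitate by Fasn with NADPH as reductant, then elongated, desaturated and stored as triglyceride. The pathway is controlled together by insulin, through Srebf1, and by glucose, through Mlxipl (ChREBP), and it is known to be active in thermogenic as well as in white fat.

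In females, Fasn TPM ran from 85.5 to 2979 with a median of 615, a 34.8-fold range. In males it ran from 99.99 to 1756 with a median of 369, a 17.6-fold range. The high-Fasn females held 1121 to 2979 TPM (median 1730) and the low-Fasn females 85.5 to 322 (median 257). The high-Fasn males held 502 to 1756 TPM (median 778) and the low-Fasn males 99.99 to 246 (median 197). These ranges are set by the ranking and carry no test. The values near the thresholds were almost continuous. The last female inside the high group was BXD14/TyJ at 1121 TPM, next to CXB11/HiAJ at 1107 outside it, and the last inside the low group was BXD66/RwwJ at 322, next to BXD74/RwwJ at 328. In males the same pairs were BXD86/RwwJ at 502 and AXB13/PgnJ at 499, and KK/HlJ at 246 and BXA2/PgnJ at 247. The highest library of all was the A/J female.

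**Figure D1:**
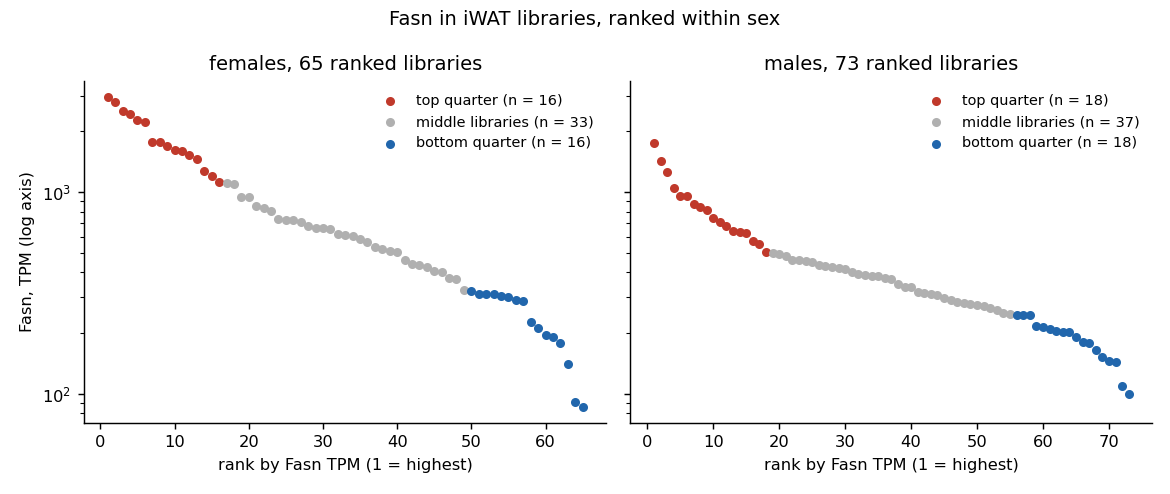
Fasn TPM (log axis) against the rank of the library within females and within males, with high-Fasn, middle and low-Fasn libraries in separate colours. Each point is 1 library. Females reach 2979 TPM and males 1756 TPM, and no gap separates the groups from the libraries in the middle.

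The 68 libraries came from 57 strains, and 11 strains gave both of their libraries. In BXD87/RwwJ, CXB13/HiAJ and SM/J both sexes were in the high group, and in BXD79/RwwJ both were in the low group. In A/J, BXD40/TyJ, BXD50/RwwJ and C57BLKS/J the female was high and the male low, and in AXB12/PgnJ, BXD55/RwwJ and PL/J the female was low and the male high. The BXD family gave 16 high and 16 low libraries, AXB and BXA strains 4 and 6, BXH strains 0 and 3, CXB strains 3 and 0, and all other strains 11 and 9.

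Fasn (ENSMUSG00000025153) lies on the minus strand at chr11:120805846-120824547 of GRCm38. The upstream sequences of Fasn and of 3 genes that followed its level closely, Acly, Elovl6 and Thrsp, are shown as examples. The windows of Acaca and Slc2a5, which also followed Fasn, were searched too and are not shown. These 2 windows held 0 whole matches in their 150 bases, and GC box matches of Slc2a5 began farther upstream. Each is the 150 bases before the RefSeq transcription start, 5′ to 3′ on the gene's own strand, from the RefSeq promoter table of GRCm38.p6. The windows are chr11:120824548-120824697 (minus) for Fasn, chr11:100528001-100528150 (minus) for Acly, chr3:129532236-129532385 (plus) for Elovl6 and chr7:97417551-97417700 (minus) for Thrsp. The GENCODE annotation of the same build places 2 of these starts farther upstream. In it Thrsp spans chr7:97412938-97417730, so that its whole window lies inside the gene. Elovl6 begins there at chr3:129532355, so that the last part of its window lies inside the gene. Capitals mark matches, on either strand, to CCAAT in Fasn and Thrsp and to the GC box GGGCGG in Acly. In Fasn the matches CCAAT and ATTGG overlap and form 1 block of capitals.
Fasn: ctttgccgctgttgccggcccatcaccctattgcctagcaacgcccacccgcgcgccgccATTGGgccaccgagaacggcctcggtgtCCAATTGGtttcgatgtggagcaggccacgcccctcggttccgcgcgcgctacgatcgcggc
Acly: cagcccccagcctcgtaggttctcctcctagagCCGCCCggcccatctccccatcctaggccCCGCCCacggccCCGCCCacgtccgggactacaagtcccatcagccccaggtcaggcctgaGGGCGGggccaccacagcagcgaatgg
Elovl6: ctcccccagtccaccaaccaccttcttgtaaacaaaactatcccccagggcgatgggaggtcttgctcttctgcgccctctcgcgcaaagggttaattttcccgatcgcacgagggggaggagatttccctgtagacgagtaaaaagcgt
Thrsp: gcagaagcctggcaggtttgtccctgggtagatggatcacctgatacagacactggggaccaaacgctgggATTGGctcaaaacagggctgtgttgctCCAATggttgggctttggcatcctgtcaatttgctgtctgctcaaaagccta

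The window of Fasn held 3 matches to CCAAT, that of Thrsp 2 and that of Acly 4 matches to the GC box, and none of the searched letters stood in the window of Elovl6. The search covered both strands of the 250 bases before each start and 4 motifs: the E-box CACGTG, the sterol element TCACNCCAC, CCAAT and GGGCGG. Over all 27025 promoters of the table, 6.05%, 1.04%, 34.5% and 32.9% held them, and over the 12454 promoters matched to genes tested below the shares were 7.67%, 0.939%, 35.9% and 53.7%. Of the genes higher in high-Fasn libraries, 1443 of 1860 were matched, and the shares were 8.25%, 0.97%, 38.7% and 57.5%. Of the lower genes, 1104 of 1474 were matched, and the shares were 7.97%, 1.18%, 33.5% and 56.5%. Of the 15 fatty acid synthesis genes listed, Fasn included, 11 were matched: 2 held the E-box, 0 the sterol element, 5 CCAAT and 4 the GC box. A match is a string of letters in these windows and was not tested as a binding site.

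Several measures of the libraries are described here, among them the mitochondrial share, which was higher in median in the high-Fasn groups, and the macrophage marker sum, which was lower in median. Some of them entered other fits as terms, and whether they cause the differences in other genes was not tested. Total estimated counts were 11747373 to 78562648 per library (median 30219445), and at the median total 3 counts correspond to 0.0993 CPM (counts scaled to a common library size). The share of counts from mitochondrially encoded genes was 8.60 to 25.8% (median 13.3%) in high-Fasn females against 3.99 to 13.02% (median 7.96%) in low-Fasn females, and 6.55 to 25.1% (median 10.6%) against 4.44 to 9.56% (median 7.57%) in males. The groups overlapped in this share in both sexes, and over all ranked libraries Spearman's rho between the share and Fasn was 0.609 in 65 females and 0.531 in 73 males, both read from the same libraries. All 5 adipocyte markers were detected in every library, with a summed level of 4613 to 34918 CPM (median 19265) in high-Fasn and 3031 to 35474 CPM (median 19715) in low-Fasn libraries. The 17 macrophage markers were all above 0 in every library and summed to 575 to 4129 CPM (median 1143) in high-Fasn and 700 to 8194 CPM (median 1420) in low-Fasn libraries. In bulk tissue, fewer cells of a type and less RNA per cell cannot be told apart.

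Among these libraries 2 low-Fasn females stood apart. The BXD79/RwwJ female held 26885 CPM of 10 skeletal muscle markers, against at most 1747 CPM in any other library of the comparison. The AXB12/PgnJ female held the lowest adipocyte sum (3031 CPM) and the highest macrophage and lymphocyte sums (8194 and 3582 CPM). Results that rest on these libraries are given with and without both. The epithelial markers of the mammary gland summed to 138.2 to 1352 CPM in females and to 0.62 to 323 CPM in males.

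Across all genes, 17528 entered the quasi-likelihood test of edgeR, with sex as a term and Benjamini-Hochberg adjustment, and Fasn itself was left out. At an adjusted p under 0.05, 1860 genes (10.6%) were higher and 1474 (8.41%) lower in high-Fasn libraries. The log2FC, high-Fasn minus low-Fasn, had a median of -0.04 over all genes tested. Without the 2 females that stood apart, 1815 genes (10.3%) were higher and 1425 (8.05%) lower of 17701. When the mitochondrial share was added as a term, 85 genes (0.485%) were higher and 89 (0.508%) lower, of which 84 and 76 were among the genes called without it. The balance of higher and lower genes depended on scaling. Library totals in place of trimmed means (TMM) moved the median of all genes from -0.04 to -0.16 and gave 952 higher (5.43%) and 4474 lower genes (25.5%), and log2(TPM + 1) with limma moved it to -0.22 and gave 424 and 8983.

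Enzymes of fatty acid synthesis rose together with Fasn. Of the 14 other members tested, 12 were higher and 0 lower, with a median log2FC of 1.19 and a range of 0.09 to 3.42. The median was 1.05 with library totals and 0.84 on the TPM scale, and with the mitochondrial share as a term 7 members remained called with a median of 0.73. The list held 12 called members without the 2 females as well.

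Acly (ENSMUSG00000020917), ATP citrate lyase, turns cytosolic citrate into acetyl-CoA. It stood at 1268 to 4531 CPM (median 2472) in high-Fasn females and 168 to 322 CPM (median 196) in low-Fasn females. In males it stood at 321 to 3027 CPM (median 642) against 129 to 210 CPM (median 166). The groups did not overlap in either sex, and the log2FC was 2.91 ± 0.18 (SE, n = 34 and 34; edgeR adjusted p = 2.51e-21). Elovl6 (ENSMUSG00000041220), which elongates palmitate to stearate, was at 431 to 1653 CPM (median 887) against 23.5 to 132.7 (median 54.8) in females and at 49.1 to 574 (median 135.1) against 15.4 to 42.8 (median 24.9) in males. Its log2FC was 3.42 ± 0.21 (edgeR adjusted p = 5.9e-21). Acly and Elovl6 were the only 2 genes of 17528 (0.0114%) whose high-Fasn libraries all lay above all low-Fasn libraries within each sex, and 0 genes lay entirely below. Within females 19 of the 17528 genes lay entirely above and 0 below, and within males 2 and 0.

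Acaca, the acetyl-CoA carboxylase that makes malonyl-CoA for Fasn, did not overlap between groups in females (978 to 2853 CPM, median 1798, against 110 to 390, median 197). In males the highest low-Fasn library met the lowest high-Fasn library (266 to 1726 CPM, median 668, against 97.7 to 266, median 159). Its log2FC was 2.62 ± 0.15 (edgeR adjusted p = 6.22e-23), the smallest p of all genes tested. Acss2, which makes acetyl-CoA from acetate, rose by 2.11 ± 0.14 on the log2 scale, and its female groups were likewise apart (199 to 687 against 34.8 to 94.6 CPM). Slc25a1, the mitochondrial citrate carrier, rose by 1.33 ± 0.14 and Aacs, which makes acetoacetyl-CoA in the cytosol, by 1.08 ± 0.12. Acacb, the carboxylase at the mitochondrial surface whose malonyl-CoA restrains fatty acid import, rose by 1.57 ± 0.22, and with the mitochondrial share as a term its adjusted p was 0.12.

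Desaturases and the mitochondrial route complete the list. Scd1, the main adipose stearoyl-CoA desaturase, was at 17782 to 87156 CPM (median 40041) against 4362 to 76472 (median 23144) in females and at 14398 to 73417 (median 34656) against 5731 to 100485 (median 18582) in males, with wide overlap. Its log2FC was 0.72 ± 0.22 (edgeR adjusted p = 0.013) and 0.69 with the mitochondrial share as a term (edgeR adjusted p = 0.263). Scd2 rose by 1.30 ± 0.16 (edgeR adjusted p = 5.1e-09). The Fads2 desaturase of polyunsaturated fatty acids had a log2FC of 0.40 (adjusted p = 0.016 in edgeR), and its neighbour in the pathway Fads1 0.32 (adjusted p = 0.0588). In mitochondrial fatty acid synthesis, a separate route, Mcat had a log2FC of 0.44 (adjusted p = 1.24e-06) and Oxsm 0.09 (adjusted p = 0.342). Elovl5, an elongase of polyunsaturated fatty acids, had a log2FC of 0.19 with TMM and -0.10 on the TPM scale.

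**Figure D2:**
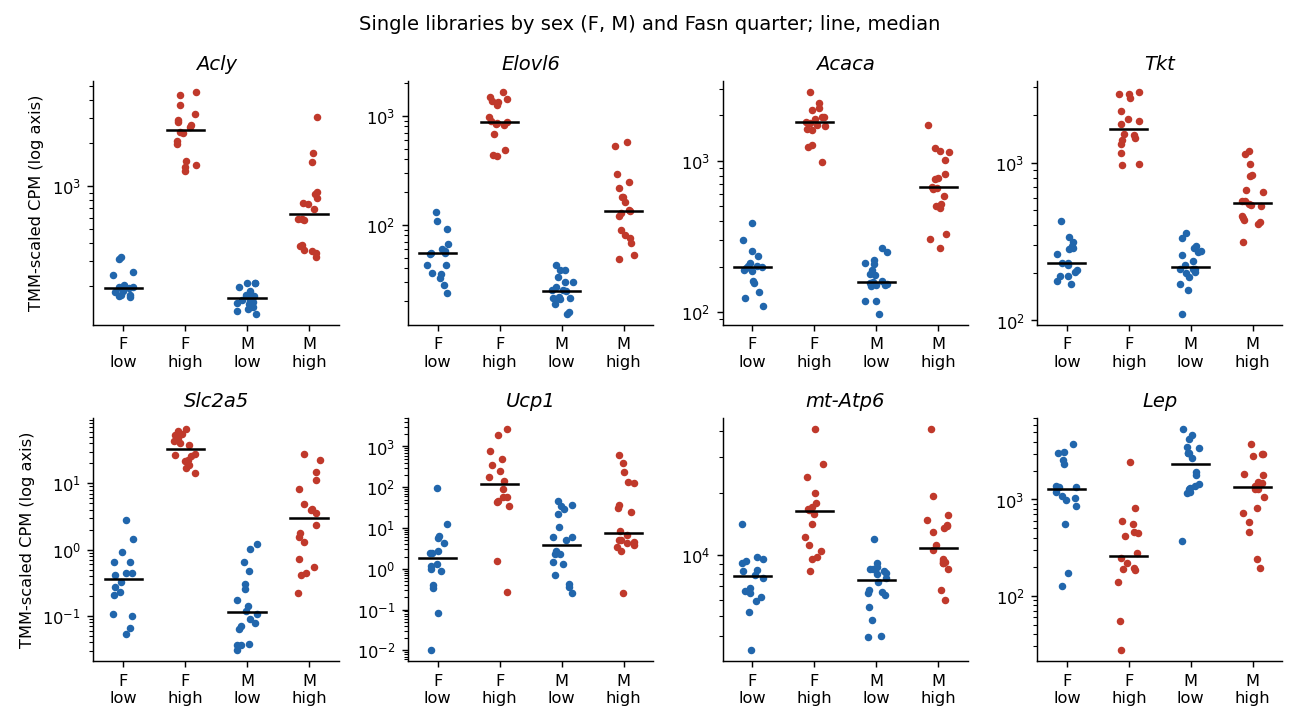
TMM-scaled CPM (log axis) of Acly, Elovl6, Acaca, Tkt, Slc2a5, Ucp1, mt-Atp6 and Lep in each library, by sex and Fasn group, with the median as a line. Acly and Elovl6 separate in both sexes, Ucp1 and Lep overlap, and the low-Fasn library with Ucp1 at 0 is drawn at 0.01 CPM.

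NADPH, the reductant that Fasn uses, comes from the pentose phosphate route, malic enzyme and isocitrate dehydrogenase. Of 9 genes on this list 6 were higher and 0 lower (median log2FC 0.35, and 0.11 on the TPM scale). Of the 9, Tkt and Me1 were called with the mitochondrial share as a term, and the median was 0.25. Tkt, the transketolase of the non-oxidative branch, was at 963 to 2801 CPM (median 1638) in high-Fasn females and 170 to 427 CPM (median 230) in low-Fasn females, without overlap, and at 315 to 1186 (median 558) against 110 to 357 (median 218) in males. Its log2FC was 2.10 ± 0.15 (edgeR adjusted p = 1.98e-18). Me1, malic enzyme, rose by 1.54 ± 0.21 and Pgd, the second dehydrogenase of the oxidative branch, by 0.73 ± 0.11. Taldo1 rose by 0.65 ± 0.08 and Pgls by 0.35 ± 0.07. The adjusted p in edgeR with the mitochondrial share as a term was 0.0613 for Pgd, 0.0564 for Taldo1 and 0.227 for Pgls. G6pdx, the first dehydrogenase of the same branch, was at 134.5 to 460 CPM (median 263) against 104.4 to 369 (median 244) in females and at 130.6 to 367 (median 238) against 89 to 396 (median 210) in males. The log2FC of G6pdx was 0.12 ± 0.12 (edgeR adjusted p = 0.52). Idh1, the cytosolic isocitrate dehydrogenase, had a log2FC of 0.20 (edgeR adjusted p = 0.169).

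Of 13 regulators of lipogenesis 9 were higher and 0 lower, with a median log2FC of 0.33 that fell to 0.06 on the TPM scale, where 5 were higher and 3 lower. On that scale 2.42% of all genes tested were higher and 51.2% lower, with a median of -0.22. Thrsp, Mlxipl and Srebf1 were the 3 members called with the mitochondrial share as a term, and the median was then 0.18. Thrsp (Spot 14), a lipogenic protein of fat and liver, led them. It was at 646 to 2097 CPM (median 1194) against 44.1 to 262 (median 81.4) in females, without overlap, and at 68.4 to 1197 (median 378) against 13.1 to 307 (median 108.9) in males, with a log2FC of 2.81 ± 0.25 (edgeR adjusted p = 9.7e-14). Mlxipl, which encodes the glucose-responsive factor ChREBP, rose by 1.03 ± 0.14 (edgeR adjusted p = 4.11e-08) and Srebf1 by 0.72 ± 0.11 (edgeR adjusted p = 1.49e-06). In females Srebf1 was at 90.6 to 353 CPM (median 161) against 58.3 to 181 (median 99.1), and the groups overlapped. Mid1ip1, the paralogue of Thrsp, rose by 0.54 ± 0.10 and Insig1, a sterol-regulated retention protein of the Srebf pathway, by 0.56 ± 0.15. Nr1h3, the liver X receptor alpha, had a log2FC of 0.15 (edgeR adjusted p = 0.257). The proteases of Srebf processing, Mbtps1 and Mbtps2, had log2FCs of 0.03 and -0.07 (edgeR adjusted p = 0.71 and 0.218). Pnpla3, a lipogenic lipase-like gene, rose by 0.88 ± 0.21 (edgeR adjusted p = 0.00146). For Insig1, Pnpla3 and Mid1ip1 the adjusted p in edgeR with the mitochondrial share as a term was 0.768, 0.25 and 0.183.

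Sterol synthesis, the other branch of the Srebf pathway, changed less: 12 of 22 members were higher and 0 lower, with a median log2FC of 0.30. On the TPM scale 8 were higher and 7 lower, against 2.42% higher and 51.2% lower over all genes tested. The members with the largest change were Pmvk (phosphomevalonate kinase), which rose by 1.01 ± 0.12, and Fdps (farnesyl diphosphate synthase), which rose by 0.89 ± 0.12. Both were among the 5 members called with the mitochondrial share as a term.

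Most listed genes of the steps that bring glucose carbon to citrate were higher as well. Of 16 genes of glucose uptake and glycolysis 11 were higher and 1 lower (median log2FC 0.53), and of 15 genes from pyruvate to citrate 14 were higher and 1 lower (median 0.77). The 14 include Pdk1, Pdk2 and Pdk4, kinases that switch off pyruvate dehydrogenase, so that this count is not one of enzymes of the route alone. Slc2a4, the insulin-responsive glucose transporter GLUT4, rose by 0.84 ± 0.12 (edgeR adjusted p = 3.54e-07), while Slc2a1, the basal transporter GLUT1, fell by 0.25 on the log2 scale (edgeR adjusted p = 0.0318). Pkm, pyruvate kinase, rose by 0.81 ± 0.10. Pdhb, a subunit of pyruvate dehydrogenase, was at 229 to 649 CPM (median 369) against 68.4 to 188 (median 121) in females, without overlap, and rose by 1.18 ± 0.10 over both sexes (edgeR adjusted p = 3.31e-15). Pcx, pyruvate carboxylase, rose by 1.07 ± 0.13. Pdp1, a phosphatase that activates pyruvate dehydrogenase, fell by 0.36 on the log2 scale (edgeR adjusted p = 6.83e-05). With the mitochondrial share as a term 1 gene of glycolysis stayed called higher, and 3 genes from pyruvate to citrate stayed higher and 1 lower.

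Genes of triglyceride assembly were higher in 10 of 13 cases and lower in 0 (median 0.54). Agpat2, an acyltransferase of the glycerol phosphate pathway, rose by 1.28 ± 0.17 and Gpd1, which makes glycerol 3-phosphate, by 1.21 ± 0.18. Of 13 genes of lipolysis and the lipid droplet 4 were higher and 0 lower (median 0.31), among them Cidea at 2.41 ± 0.34 and the adrenergic receptor Adrb3 at 1.26 ± 0.23. Fatty acid uptake held 2 higher and 0 lower genes of 12, with a median of 0.04 that turned to -0.08 with library totals and -0.22 on the TPM scale. The count of higher genes is near the 10.6% over all genes tested, whose medians in these 2 settings were -0.16 and -0.22. The called members of the uptake list were Acsl1, a long-chain acyl-CoA synthetase (log2FC 0.35), and the transport protein Slc27a4 (log2FC 0.30). None of the members of these 3 lists was called with the mitochondrial share as a term.

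**Figure D3:**
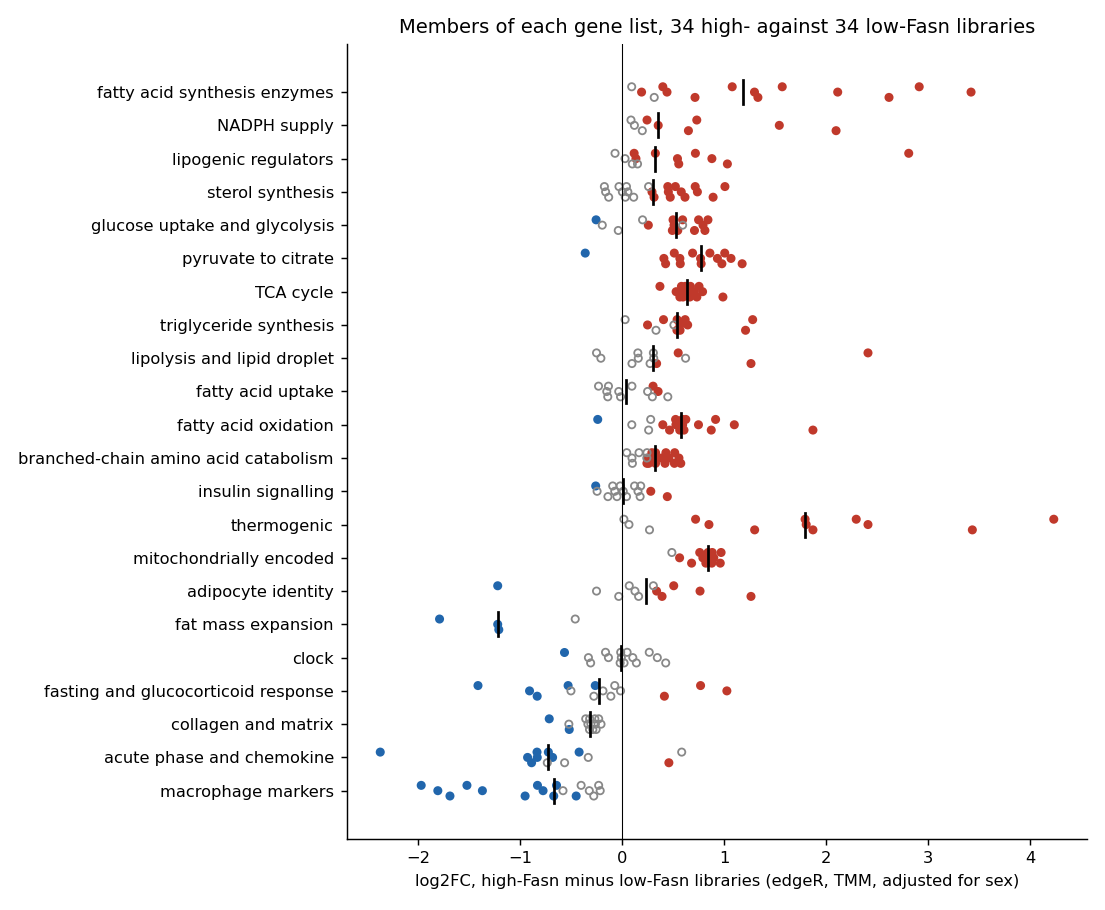
log2FC of each tested member of 22 gene lists (high-Fasn minus low-Fasn, TMM, adjusted for sex), with filled points for an adjusted p under 0.05, open points for the rest and a bar at the list's median. The fatty acid synthesis enzymes reach 3.42, the thermogenic genes 4.23, and the macrophage markers lie below 0.

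Mitochondrial programmes moved with Fasn and with the mitochondrial share. In the tricarboxylic acid cycle 15 of 15 genes were higher (median 0.64), with Sdhb, a subunit of succinate dehydrogenase, at 0.79 ± 0.10. In fatty acid oxidation 14 of 18 were higher and 1 lower (median 0.58). Acadvl, the very-long-chain dehydrogenase, rose by 1.10 ± 0.15 and Cpt1b, the muscle and brown fat form of the carnitine transferase, by 1.87 ± 0.31, while the liver form Cpt1a fell by 0.24 on the log2 scale (edgeR adjusted p = 0.0234). In branched-chain amino acid catabolism 15 of 21 were higher and 0 lower (median 0.32), with Bckdha at 0.58 and Echs1 at 0.56. Of the 13 mitochondrially encoded genes 12 were higher (median 0.84), led by mt-Atp6 at 0.97 ± 0.14. With the mitochondrial share as a term, 0 members of these 4 lists were called by edgeR and the medians were 0.11, -0.03, 0.002 and 0.01. For the mitochondrially encoded genes this outcome was fixed in advance, because the share is made of the counts of these 13 genes.

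With TMM, thermogenic genes rose most among the lists in median, 10 of 13 higher and 0 lower with a median log2FC of 1.79. On the TPM scale their median was 0.80, against 0.84 for the fatty acid synthesis enzymes. Ucp1, the uncoupling protein of brown and beige fat, was at 0.271 to 2709 CPM (median 117.1) in high-Fasn females and at 0 to 94.4 CPM (median 1.88) in low-Fasn females. In males it was at 0.253 to 614 CPM (median 7.52) against 0.254 to 46.9 CPM (median 3.88). The groups overlapped in both sexes, and the log2FC was 4.23 ± 0.74 (edgeR adjusted p = 1.47e-05). Elovl3, an elongase of brown fat, rose by 3.43 ± 0.61. The summed level of the 13 genes was 97.2 to 4831 CPM (median 417) in high-Fasn and 33.1 to 427 CPM (median 178) in low-Fasn libraries. With the mitochondrial share as a term none was called by edgeR and the median was 0.36.

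Genes that mark an expanding fat pad were lower in high-Fasn libraries. Of the 4 on this list 3 were lower (median -1.21). Lep, the adipokine leptin, was at 27.1 to 2477 CPM (median 262) against 127.9 to 3781 (median 1273) in females and at 193 to 3755 (median 1337) against 371 to 5420 (median 2314) in males. The ranges overlapped, and the log2FC was -1.22 ± 0.29 (edgeR adjusted p = 0.00163). Sfrp5, a secreted Wnt inhibitor, was at 0.923 to 116.8 CPM (median 10.2) against 4.69 to 400 (median 121) in females, and its log2FC over both sexes was -1.79 ± 0.34 (edgeR adjusted p = 6.85e-05). Body weight and fat mass were not analysed here. With the mitochondrial share as a term the median was -0.85 and none was called by edgeR.

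Of the 12 genes of adipocyte identity, 5 were higher and 1, Lep, lower (median 0.23). The adipsin gene Cfd rose by 0.76 ± 0.23 (edgeR adjusted p = 0.014). Insulin signalling held 2 higher and 1 lower gene of 15 (median 0.01, and -0.10 with library totals). Irs1, an insulin receptor substrate, rose by 0.44 ± 0.11, and Tbc1d4, which gates GLUT4 traffic, had a log2FC of 0.28 with TMM and -0.0083 on the TPM scale. Foxo1, a transcription factor held out of the nucleus by insulin, fell by 0.26 on the log2 scale (edgeR adjusted p = 0.000172). Clock genes held 0 higher and 1 lower of 15 (median -0.01), which was Per2 at -0.57 ± 0.17. Over all genes tested 10.6% were higher and 8.41% lower. The counts of the insulin signalling list and of the lower clock gene are near these shares. In the 3 lists of this paragraph edgeR called 0 members with the mitochondrial share as a term.

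Of 14 genes of the fasting and glucocorticoid response 3 were higher and 5 lower (median -0.22). Hsd11b1, which regenerates active glucocorticoid inside the cell, was the gene that rose most, by 1.03 ± 0.15 (edgeR adjusted p = 4.16e-07), and it stayed called with the mitochondrial share as a term (log2FC 0.93). Fkbp5, a co-chaperone of the receptor, was at 20.9 to 52.1 CPM (median 38.95) against 37.6 to 276 (median 53.6) in males and fell by 0.91 on the log2 scale over both sexes (edgeR adjusted p = 3.33e-05), and the metallothionein Mt2 fell by 1.41 (edgeR adjusted p = 0.000776). Neither was called with the mitochondrial share as a term (log2FC -0.66 and -0.78, edgeR adjusted p = 0.132 and 0.467). Pdk4, which switches off pyruvate dehydrogenase in fasting, had a log2FC of 0.77 (edgeR adjusted p = 0.0225) that turned to -0.33 with the mitochondrial share as a term.

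Macrophage markers were lower: 11 of 17 fell and 0 rose, with a median log2FC of -0.67. In females alone 13 of 17 fell and in males alone 0 of 17 (medians -1.12 and -0.40). Over all genes tested 6.22% were lower in females alone and 0.845% in males alone. In males 3 of the 17 had a log2FC above 0, and the difference between the sexes was not tested for the list. Without the 2 females that stood apart 8 of 17 fell over both sexes (median -0.59), and with the mitochondrial share as a term 0 were called by edgeR (median -0.19). Acute phase genes and chemokines held 8 lower and 1 higher of 13 (median -0.72). Saa3, the serum amyloid A of fat, was at 1.75 to 9.74 CPM (median 2.96) against 2.05 to 418 (median 5.5) in females, and its log2FC of -2.37 ± 0.42 was -1.37 without the 2 females. Hp, haptoglobin, fell by 0.93 ± 0.24 on the log2 scale. Orm1, orosomucoid, was the higher member (log2FC 0.46, edgeR adjusted p = 0.0493), and without the 2 females its adjusted p was 0.0504. In this list edgeR called 0 members with the mitochondrial share as a term (median -0.25), and with the macrophage markers as a term 0 were called as well (median -0.16).

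Collagen and matrix genes held 2 lower and 0 higher of 14 (median -0.31). Over all genes tested 8.41% were lower and 10.6% higher, and several of the counts in this paragraph are near these shares. Lox, which cross-links collagen, fell by 0.71 ± 0.17 and Sparc, a collagen-binding matrix protein, by 0.52 ± 0.16 on the log2 scale, and neither was called with the mitochondrial share as a term (edgeR adjusted p = 0.122 and 0.358). In females alone 6 of 14 fell and in males alone 0 of 14, against 6.22% and 0.845% of all genes tested. Of the other marker lists, adipocyte markers held 1 higher of 5 (median 0.07, and -0.04 with library totals). Endothelial and progenitor markers each held 1 lower of 8, mast cell markers 2 lower of 5 and lymphocyte markers 0 called of 13. Mammary epithelial markers held 4 higher of 9, of which 3 stayed without the 2 females. In females alone 0 of 9 were called (median 0.37) and in males alone 0 of 3 tested. On the TPM scale and with the mitochondrial share as a term 0 of 9 were called. The male sums of these markers had medians of 2.49 CPM in high-Fasn and 2.65 CPM in low-Fasn libraries. Schwann cell markers held 1 higher of 5 and red blood cell markers 0 called of 5. Of 10 muscle markers 1, Acta1, was lower, and without the 2 females 0 were (adjusted p of Acta1 0.0652 in edgeR).

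**Figure D4:**
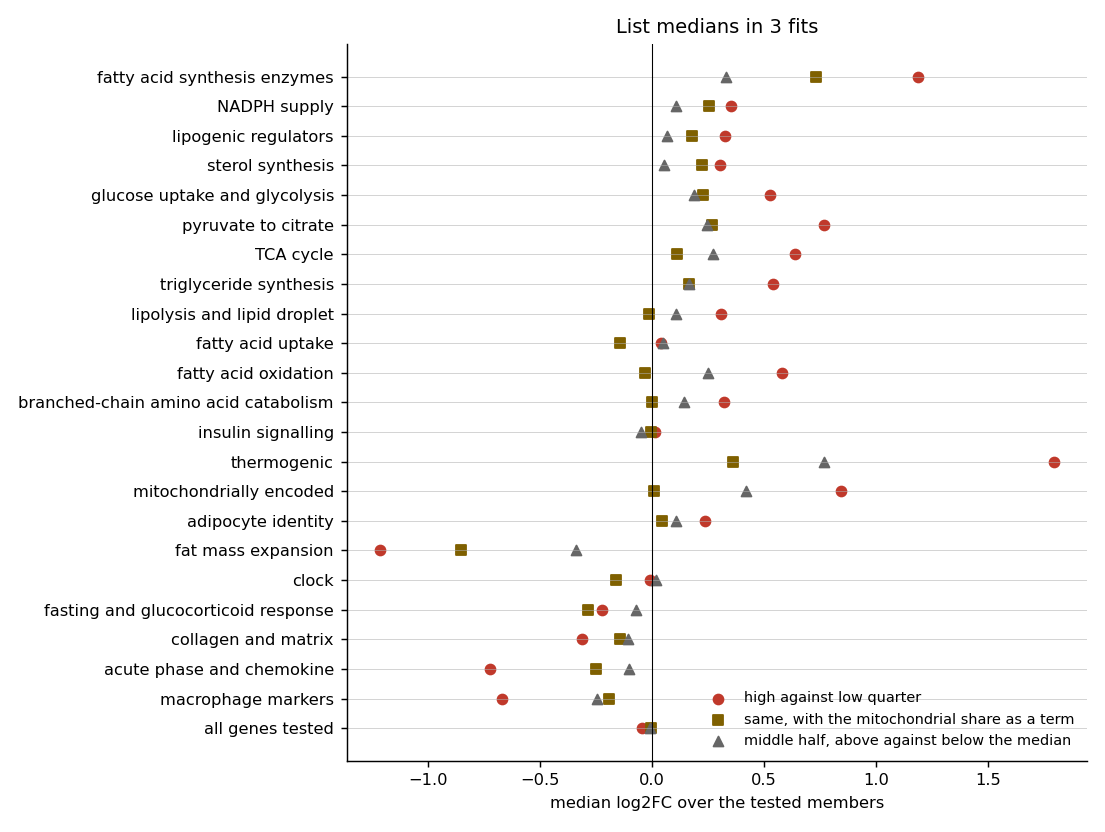
Median log2FC of 22 gene lists and of all genes tested, in the high-Fasn against low-Fasn comparison (circles), in the same comparison with the mitochondrial share as a term (squares) and in the libraries between the groups, above against below the median of Fasn (triangles). The fatty acid synthesis median is 1.19, 0.73 and 0.33, and the thermogenic median 1.79, 0.36 and 0.77. The share is made of the counts of the mitochondrially encoded genes, so that the square of that list was fixed in advance.

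Of the genes that averaged 1 CPM or more, Slc2a5, the fructose transporter GLUT5, rose most. It was at 14.1 to 66.2 CPM (median 32.4) in high-Fasn females and 0.0536 to 2.83 CPM (median 0.365) in low-Fasn females, without overlap, and at 0.225 to 27.4 CPM (median 2.97) against 0.0304 to 1.22 CPM (median 0.113) in males. The log2FC was 5.21 ± 0.43 (edgeR adjusted p = 3.31e-15) and 4.54 with the mitochondrial share as a term. The lowest levels of Slc2a5 are below 3 counts at the median total, so that its fold rests in part on the prior count of the fit. Dmbt1, a secreted epithelial glycoprotein, had a log2FC of 3.53 ± 0.78 (edgeR adjusted p = 0.000533), with a median of 21 CPM in high-Fasn against 3.56 CPM in low-Fasn females and of 0.0416 against 0.273 CPM in males. It was not called in females alone (edgeR adjusted p = 0.0595), with limma-voom (log2FC 2.16, adjusted p = 0.107), on the TPM scale (adjusted p = 0.0622 in limma) or with the mitochondrial share as a term (edgeR adjusted p = 0.0846). Mmd2 rose by 3.16 ± 0.50, and with the mitochondrial share as a term its adjusted p was 0.132. The remaining genes among the 10 largest rises were Ucp1, Elovl3, Elovl6, Acly, Thrsp and the pseudogenes Gm13340 and Gm5182, whose reads cannot be told apart from those of near-identical copies. Gm13340 had 1371 CPM in 1 high-Fasn male and a median of 4.08 CPM in that group.

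The largest falls were less even across libraries. Itgad, an integrin of macrophages, was at 0.129 to 2.28 CPM (median 0.311) against 0.271 to 65.1 (median 1.76) in females and fell by 3.001 on the log2 scale (edgeR adjusted p = 0.000114). Tph2, a tryptophan hydroxylase, was at 0 to 11 CPM (median 0.328) against 0.0778 to 156 (median 5.06) in females and at 0.0345 to 90.3 (median 6.45) against 0.633 to 88.5 (median 31.7) in males, and it fell by 2.53 over both sexes (edgeR adjusted p = 0.00379). Its log2FC was -4.32 in females alone (edgeR adjusted p = 0.00264) and -1.05 in males alone (edgeR adjusted p = 0.383), and the interaction did not pass (edgeR adjusted p = 0.271). Mup1 and Mug1, which encode proteins made mainly by the liver, fell by 3.12 and 2.53, each through a few libraries, since the median of Mup1 was 0.348 CPM in high-Fasn and 0.474 CPM in low-Fasn females. The muscle genes Trdn, Eef1a2 and Acta1 had log2FCs of -2.87, -2.84 and -2.44, which were -1.31, -0.75 and -1.26 without the 2 females, and of these Trdn stayed called (edgeR adjusted p = 0.0312). Vcp-rs and Gm29013, the other genes in this group, are pseudogenes with high values in a few libraries. With limma-voom Mup1, Mug1, Vcp-rs, Eef1a2, Gm29013 and Acta1 were not called, and with the mitochondrial share as a term Trdn was the only one of the 10 largest falls that was. With that term and without the 2 females Trdn was not called either (log2FC -0.71, edgeR adjusted p = 0.743).

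Over all ranked libraries, the genes whose level followed Fasn most closely were named by the mean of Spearman's rho in 65 females and 73 males, among 14995 genes with a mean of at least 1 TPM. All values come from the libraries that gave the ranking and are a description. The order was Acly (0.889), Tkt (0.868), Elovl6 (0.854), Acaca (0.854), Acss2 (0.816), Pdhb (0.801), Ttc25 (0.778), Thrsp (0.769), Slc2a5 (0.746) and Gbe1 (0.737). The median over all genes was -0.252, with 70 genes above 0.5 and 204 below -0.5. Gbe1 makes the branches of glycogen and rose by 1.18 ± 0.10 (edgeR adjusted p = 6.24e-15). Ttc25, a gene of ciliary dynein docking, lies 17606 bases beyond the start of Acly on chromosome 11 (chr11:100545607-100572568, plus strand), with 0 genes of the tables between them. It was expressed at 3.64 to 23.7 CPM (median 10.2) against 1.17 to 2.4 CPM (median 1.74) in females and rose by 1.88 ± 0.19 over both sexes (edgeR adjusted p = 6.15e-12). Of the genes beside Fasn itself, Ccdc57 had a log2FC of 0.72 ± 0.11 (edgeR adjusted p = 1.96e-06) and Dus1l 0.08 (edgeR adjusted p = 0.167).

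Within the sexes, females alone gave 1097 higher (6.63%) and 1029 lower genes (6.22%) of 16554, and males alone gave 544 higher (3.38%) and 0.845% lower of 16093. Fasn itself spanned a wider range in females, so that the groups of the 2 sexes differ in how far apart they were set. A test of the interaction between sex and Fasn group called 65 of 17528 genes (0.371%), 20 with a log2FC lower in males than in females and 45 with one higher. Of the 20, 18 stayed called without the 2 females that stood apart, and of the 45, 9 did. Lipogenic genes stood among the 20. The log2FC of Tkt was 2.83 in females and 1.44 in males (interaction adjusted p = 0.000519 in edgeR), that of Acss2 2.72 and 1.56 (adjusted p = 0.0131), that of Me1 2.40 and 0.78 (adjusted p = 0.0193), that of Acly 3.60 and 2.29 (adjusted p = 0.0204) and that of Acaca 3.17 and 2.11 (adjusted p = 0.032). For Elovl6 (4.10 and 2.80) and Thrsp (3.63 and 2.07) the interaction did not pass (edgeR adjusted p = 0.0996 and 0.105).

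The 68 libraries of the middle of the ranking, which the comparison above did not use, were divided at the median of Fasn within each sex. Females above the median held 620 to 1107 TPM of Fasn and those below 328 to 607, and males 375 to 499 and 247 to 349. The mitochondrial share had a median of 9.23% above and 7.49% below in females, and 9.33% and 7.89% in males. Of 17603 genes tested, 9 were higher (0.0511%) and 5 lower (0.0284%). The 9 were Acly (log2FC 0.78), Acaca (0.78), Tkt (0.60), Elovl6 (1.30), Ttc25 (0.81), Slc2a5 (2.04), Pdhb (0.40), the dehydrogenase Dhrs7 (0.40) and the mitochondrial glycerol phosphate dehydrogenase Gpd2 (0.73), and all 9 were among the higher genes of the outer libraries. Of the 1860 higher genes 1854 were tested here, and 1678 (90.5%) had a log2FC above 0, while of the 1474 lower genes 1471 were tested and 205 (13.9%) did, against 46% over all genes of both fits (54% were under 0). The 14194 genes not called in the outer libraries had 43.5% above 0.

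Whether high Fasn in a mouse went with high Fasn in the mouse of the other sex of its strain was tested on libraries that the respective ranking did not use. Males of strains whose female was high held 146 to 1044 TPM (median 434, n = 15), and males of strains whose female was low held 109.1 to 1756 TPM (median 277, n = 11). The ranges overlapped, and the difference in mean log2(TPM + 1) was 0.07 ± 0.37 (SE; 2-sided permutation test p = 0.863, adjusted p = 0.863). Females of strains whose male was high held 91.2 to 2281 TPM (median 680, n = 17), and females of strains whose male was low held 302 to 2979 TPM (median 639, n = 10). This difference was -0.45 ± 0.49 (SE; 2-sided permutation test p = 0.366, adjusted p = 0.731). The A/J female, highest of all females, was in the last group.

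Over the 58 strains with a ranked library of each sex, Fasn in females and males had a Pearson r of 0.0025 (permutation p = 0.985) and a Spearman rho of 0.10 (permutation p = 0.439), with Benjamini-Hochberg adjusted p of 0.985 and 0.878. Without the 2 strains farthest from the female median r was 0.012 (56 strains). No gene was called between groups set by the other sex. In males 0 of 16060 genes (0%) were called by edgeR, with 867 at an unadjusted p under 0.05 (682 with limma-voom), and in females 0 of 17100 (0%), with 4182 (4427 with limma-voom). The 4182 genes are far more than a share of 0.05 of those tested. The absence of calls therefore does not show that the female groups were alike. BXD79/RwwJ and AXB12/PgnJ females, which stood apart, were among the females of this comparison.

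**Figure D5:**
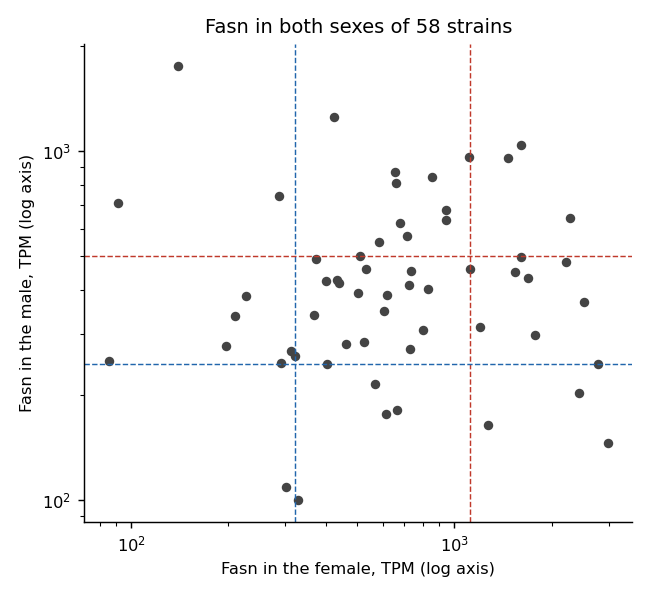
Fasn TPM of the male against the female of the same strain for 58 strains (log axes), with dashed lines at the thresholds of the high-Fasn and low-Fasn groups of each sex. The points fill the plane without a trend (Pearson r 0.0025), and strains appear in all 4 outer corners.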

How the data were processed

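RNA was sequenced as stranded paired-end reads of 100 bases. The authors quantified transcripts with kallisto 0.46.1 against Ensembl release 97 (GRCm38) and summarised them per gene with tximport, and they deposited a table of TPM and a table of estimated counts. Fasn TPM gave the ranking, and the deposited estimated counts, rounded to whole numbers, were tested. Symbols were found for 35856 of 36558 genes, and positions came from the GENCODE annotation of the same build.

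Libraries, gene lists and the named-gene rule were chosen with earlier results of these data known. Low counts were removed with filterByExpr, counts were scaled by TMM, and edgeR 4.0.16 (R 4.3.3) fitted sex and Fasn group, with Benjamini-Hochberg adjustment over all genes except Fasn. Printed CPM are TMM-scaled. On simulated data with 17399 genes the test recovered 65 of 100 genes changed by 0.5 and 79 of 99 changed by 1 on the log2 scale, and it called 8 unchanged genes. Fasn was compared on log2(TPM + 1) with 100000 resamples. limma 3.58.1 and DESeq2 1.42.0 served as alternatives, with other scalings, filters, thresholds of the ranking, strain families, marker scores, the mitochondrial share and the depth. Alternatives without the BXD79/RwwJ and AXB12/PgnJ females, and those with several marker scores, were added after the data were seen.

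Genes were named by rule: all members of the fatty acid synthesis, NADPH and regulator lists, the 2 most changed called members of each other list per direction, the 10 largest called changes per direction at a mean of at least 1 CPM, the 10 genes most correlated with Fasn, and genes that an alternative reversed. Genes beside Fasn and those called in the middle libraries were named after their values were seen. A gene that the rule names is not reported here. Among the genes tested, 393 held the values of another gene in every library to 6 decimals of CPM, which left 20 repeats among higher and 12 among lower genes; 1 of them, Trem2, is on a list. No 2 libraries held identical values.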

Additional observations from a re-analysis of the deposited data

Results flagged for a closer look

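The log2FC between high-Fasn and low-Fasn libraries differed between the sexes, by a test of the interaction, for 65 genes of 17528 (edgeR, adjusted p under 0.05). Among the named genes, the log2FC in males minus that in females was -1.31 for Acly, -1.05 for Acaca, -1.14 for Acss2, -1.01 for Slc25a1, -1.37 for Tkt, -1.60 for Me1, -0.75 for Pdhb and -1.33 for Ttc25. It was 3.66 for Gm13340, 5.88 for Eef1a2 and 5.30 for Acta1. Without the BXD79/RwwJ and AXB12/PgnJ females, Acta1 had a difference of 2.69 (edgeR adjusted p = 0.284), Eef1a2 of 1.09 (edgeR adjusted p = 0.801) and Gm13340 of 3.62 (edgeR adjusted p = 0.0739). Slc25a1 at -0.96 and Ttc25 at -1.36 also no longer passed (edgeR adjusted p = 0.0679 and 0.0676), while the other 6 did. With limma-voom 8 genes were called, all with a smaller log2FC in males. The female and male groups were set at different Fasn levels, so that a difference between the sexes and a difference in the spread of Fasn cannot be told apart.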

How the results depend on the processing

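The share of tested genes that was higher in high-Fasn libraries was 10.6%. It was 5.43% with library totals (952 genes), 2.42% (424) with limma after adding 1 to TPM and 2.44% after adding 0.1, 5.81% without BXD strains, 6.63% in females alone (7% without the BXD79/RwwJ and AXB12/PgnJ females), 3.38% in males alone, 0.485% with the mitochondrial share as a term and 0.401% (71) with that term and without both females. The share that was lower was 8.41%. It was 25.5% with library totals (4474 genes), 51.2% (8983) and 51.9% on the 2 TPM scales, 5.34% without BXD strains, 12.8% (2248, with 1701 higher) with the 3 left-out libraries ranked, 0.845% in males alone, 5.13% with macrophage markers as a term, 0.508% with the mitochondrial share as a term and 0.136% (24) with that term and without both females. The other alternatives stayed within 1.5 times of both counts, among them DESeq2 (2025 and 1647) and strain as a random block in limma-voom (1921 and 1236, correlation within strain 0.117). The interaction with sex was called for 65 genes, 8 with limma-voom and 32 without both females. In the middle libraries library totals gave 22 higher and 10 lower genes, and limma-voom gave 0 lower genes. The cause of these differences was not tested.

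On these 2 TPM scales the log2FC turned negative for Elovl5 (-0.10 and -0.11), Oxsm (-0.16 and -0.17), Rpe (-0.039 and -0.041), Nr1h2 (-0.17 and -0.18), Scap (-0.15 and -0.17), Insig2 (-0.19 and -0.20), Mbtps1 (-0.24 and -0.24) and Tbc1d4 (-0.0083 and -0.0093). Pdk4 turned to -0.33 with the mitochondrial share as a term and to -0.29 when both females were also left out. Gm29013 turned to 0.38 in the top and bottom 10% of the ranking, 1.58 with the mitochondrial share, 0.97 with the library total as a term and 1.70 with the mitochondrial share and without both females. Of 93 named genes 21 kept direction and side of the threshold under every alternative that tested them, including Acly, Acaca, Elovl6, Acss2, Tkt, Thrsp, Me1, Mlxipl and Slc2a5. No paired analysis was possible by replicate number because libraries carry mouse numbers alone. Strain joined a high-Fasn with a low-Fasn library, always of different sex, in 4 strains with a high female and 3 with a low female, and entered as the random block given above.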
